A study of Mus musculus with 6 samples.

Results

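The genes examined here encode the enzymes that make cholesterol, the proteins that sense and control its level, and the carriers and pumps that move it through and out of the cell. They were chosen by name from a list of 31 gene symbols, of which 27 had a row among the 22206 transcript clusters of the array. The list was chosen with earlier results of these data known. Its shares beside those of all transcript clusters are therefore description and not a test. Acat2, Tm7sf2, Srebf1 and Nr1h2 were not matched to a row and were not analysed here. The measurements came from Müllerian ducts, the embryonic tubes from which oviduct, uterus and upper vagina form, dissected from mouse embryos at E17.5 and frozen before RNA extraction. The 3 control samples had the genotype Lats1f/f,Lats2f/f, so both genes that encode the LATS kinases of the Hippo pathway carried floxed alleles but no Cre was present. The 3 mutant samples had the genotype Lats1f/f,Lats2f/f,Amhr2cre/+ and carried Cre in the locus of Amhr2, the receptor of anti-Müllerian hormone. Amhr2 is expressed in the duct mesenchyme, so the duct epithelium is not the tissue in which this Cre is expected to act, while the whole duct was measured. The genotypes also differ in the number of intact Amhr2 alleles. Each of the 6 samples was run on 1 Affymetrix array.

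Cholesterol is built from acetyl-CoA by a long chain of enzymes. The mevalonate part yields isoprenoid units, the squalene part joins them, and the sterol part closes the rings and trims lanosterol down to cholesterol. When sterols in the endoplasmic reticulum are low, the protein SCAP escorts SREBP2 to the Golgi, where it is cut to release a transcription factor that raises the synthesis genes together. When sterols are plentiful, INSIG proteins hold SCAP back, and oxysterols activate the LXR receptors, which raise the efflux pumps ABCA1 and ABCG1 and the ubiquitin ligase MYLIP, which lowers lipoprotein uptake.

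Values are log2 signals, so a difference of 1 is a doubling, and they are compared only for the same gene between arrays. The median signal differed little among the 6 arrays (6.87 to 6.95). Background, taken as the median of an array's own background probes, was 5.35 to 5.88. Precision is limited by the small number of arrays. Of 8 duct epithelium and 8 duct mesenchyme markers measured, only Lhx1 and Hoxa13 lay below background on every array. In 1 library, control 3, urothelium markers stood apart: their mean level was 10.91 there, the highest of the 3 controls, against 6.38 on the lowest control and 6.66 to 6.78 on the mutants. Control 3 was the highest control for 6 of the 7, and Upk3b was high on all arrays. On every mutant array Upk2, Upk3a, Psca and Krt5 lay below background, and Upk1a and Upk1b above it. Smooth muscle markers went different ways. Actg2, Myh11 and Cnn1 were highest on control 3, at 15.15, 12.58 and 11.74, and control 3 was the highest control for 6 of the 8 markers. Tagln rose with genotype by 2.92 (limma adjusted p = 0.00108). Results that rest on control 3 are therefore given with and without it. Because tissue was measured in bulk, a change in the share of a cell type and a change in RNA per cell cannot be told apart.

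Enzymes of cholesterol synthesis stood higher in mutant ducts along most of the pathway. All 16 measured enzymes had a higher mean in mutant than in control ducts, with a median log2 fold change of 0.93, whereas the median over all transcript clusters was -0.01. Fdps, Cyp51, Nsdhl and Hsd17b7 rose, by 2.77, 2.34, 2.75 and 3.20 times, and no enzyme fell. In 10 of the 16, every mutant array lay above every control array. Calls were made with limma at a Benjamini-Hochberg adjusted p of 0.05 over all transcript clusters. Of the 27 measured genes 4 were called, or 14.8%, where 3.26% of all transcript clusters were called and 2.59% rose, and 11 of the 27 had all mutant arrays higher, or 40.7%, where 10.9% of all transcript clusters did. The calls depended on the arrays used: 0 genes were called without control 1, mutant 1 or mutant 2, and Cyp51 alone was called without control 2 or without mutant 3, while 9 genes were called without control 3.

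**Figure D1:**
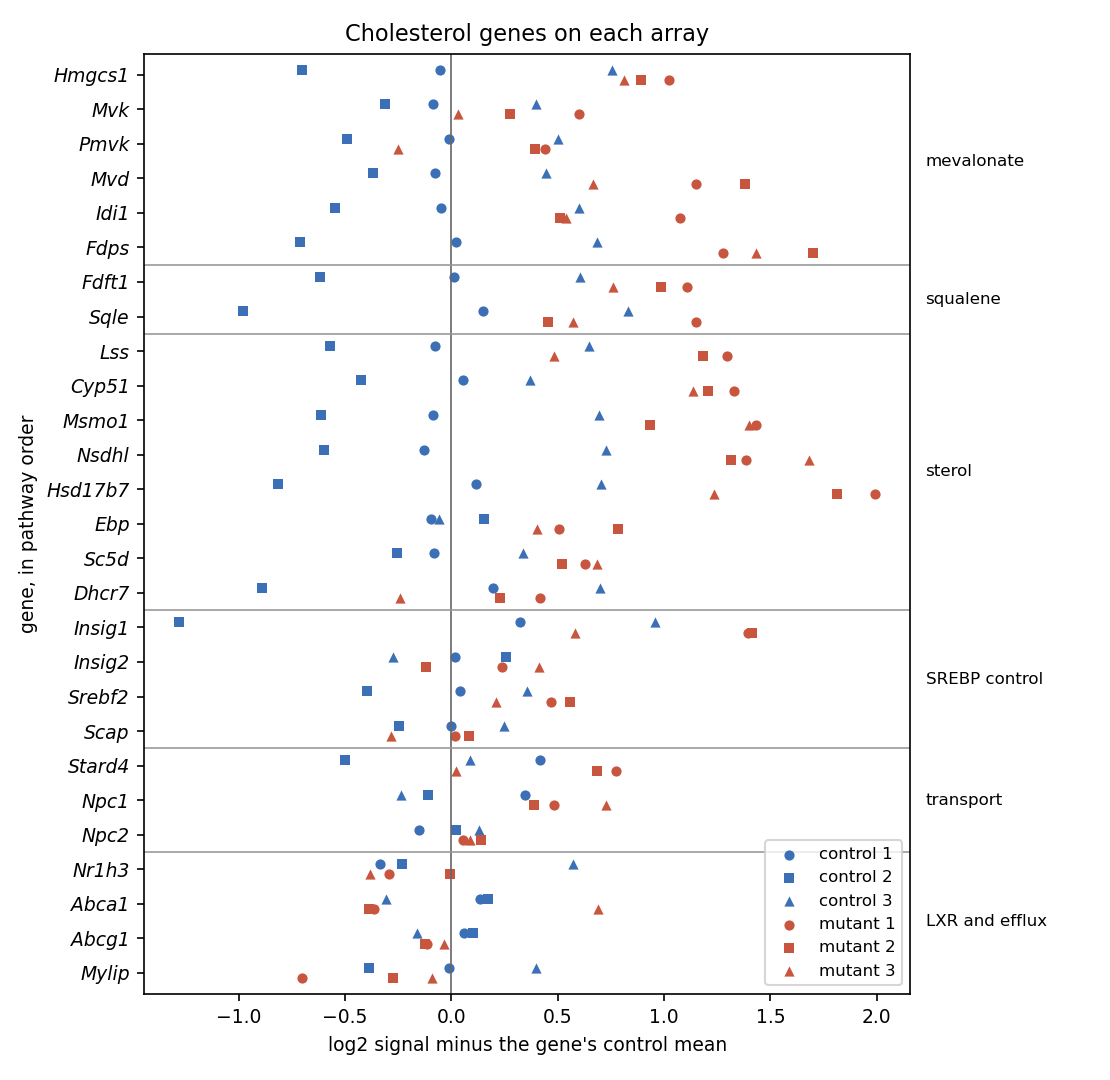
Each point is the log2 signal of 1 gene on 1 array minus the mean of the 3 control arrays, for the 27 measured genes in pathway order (controls blue, mutants red, a marker shape for each replicate number). Control 2 lies on the left and control 3 on the right for most enzymes, and the mutant arrays lie to the right of all controls for 10 of 16 enzymes.

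In the mevalonate part, which supplies isoprenoid units, the last enzyme differed most. Fdps, the farnesyl diphosphate synthase that joins these units, was at 8.29, 7.56 and 8.96 on control arrays 1, 2 and 3 and at 9.55, 9.97 and 9.70 on mutant arrays 1, 2 and 3. No mutant array overlapped the controls, the nearest pair being 0.59 apart, and the log2 fold change was 1.47 ± 0.31 (SE; limma adjusted p = 0.0378). Mvd, the decarboxylase that makes isopentenyl diphosphate, was at 8.19, 7.90 and 8.71 in controls and 9.42, 9.65 and 8.93 in mutants. Its groups did not overlap, but its log2 fold change of 1.07 ± 0.26 missed the threshold (adjusted p = 0.0621). Hmgcs1, the cytosolic HMG-CoA synthase at the entrance of the pathway, was at 14.58, 13.93 and 15.39 in controls and at 15.65, 15.52 and 15.44 in mutants. The mutant arrays lay above all controls by only 0.05, and the log2 fold change of 0.91 ± 0.32 was not called (adjusted p = 0.202). Idi1, the isomerase that readies the isoprenoid unit for joining, had a log2 fold change of 0.71 (95% interval 0.05 to 1.36), with control 3 above 2 mutant arrays. The kinases Mvk and Pmvk, which phosphorylate mevalonate in succession, overlapped between genotypes, with log2 fold changes of 0.30 (-0.21 to 0.82) and 0.19 (-0.44 to 0.83).

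The squalene enzymes were not called, and 1 of the pair had an unadjusted p under 0.05 in limma. Of all 22206 transcript clusters 3398 had such a p, the base for the counts of unadjusted p given below. Fdft1, squalene synthase, was at 12.58, 11.95 and 13.17 in controls and 13.67, 13.55 and 13.32 in mutants, without overlap (log2 fold change 0.95 ± 0.28, adjusted p = 0.135). Sqle, the epoxidase that follows it, was at 9.93, 8.80 and 10.61 in controls and 10.93, 10.23 and 10.35 in mutants. Control 3 lay above 2 of the 3 mutant arrays, and the interval of the Sqle log2 fold change ran from -0.18 to 1.64.

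Sterol enzymes held 3 of the 4 rises, and their median log2 fold change was 1.10 over 8 measured. Cyp51, which removes a methyl group from lanosterol, was at 11.72, 11.25 and 12.04 in controls and at 13.001, 12.88 and 12.81 in mutants. The mutant arrays lay close together, with an SD of 0.10 against 0.40 in controls, and the log2 fold change was 1.22 ± 0.22 (adjusted p = 0.0155). Nsdhl, the dehydrogenase that helps remove the next methyl groups, was at 12.07, 11.60 and 12.93 in controls and 13.58, 13.51 and 13.88 in mutants. It rose by 1.46 ± 0.31 (adjusted p = 0.0341), and the lowest mutant lay 0.59 above control 3. Hsd17b7, the keto-reductase of the same demethylation complex, was at 9.42, 8.49 and 10.01 in controls and 11.30, 11.12 and 10.54 in mutants. It had the highest log2 fold change of the 27 genes, 1.68 ± 0.36 (adjusted p = 0.0380).

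The other sterol enzymes did not pass the threshold. Msmo1, the methylsterol oxidase that works with Nsdhl and Hsd17b7, was at 8.51, 7.99 and 9.29 in controls and 10.03, 9.53 and 9.998 in mutants, a difference of 1.26 ± 0.31 without overlap (adjusted p = 0.0677). Lss, which closes the sterol rings, was at 10.68, 10.18 and 11.40 in controls and 12.05, 11.94 and 11.23 in mutants, and mutant 3 lay below control 3 (0.99 ± 0.32, adjusted p = 0.172). Ebp, a sterol isomerase, and Sc5d, a sterol desaturase, each had all mutant arrays above all controls, with log2 fold changes of 0.56 (0.17 to 0.96) and 0.61 (0.18 to 1.04). Dhcr7, the reductase of the final steps, was the enzyme with the lowest log2 fold change, 0.13 (-0.69 to 0.96). Its control arrays, at 11.18, 10.09 and 11.68, spanned all mutant arrays, at 11.40, 11.21 and 10.74.

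**Figure D2:**
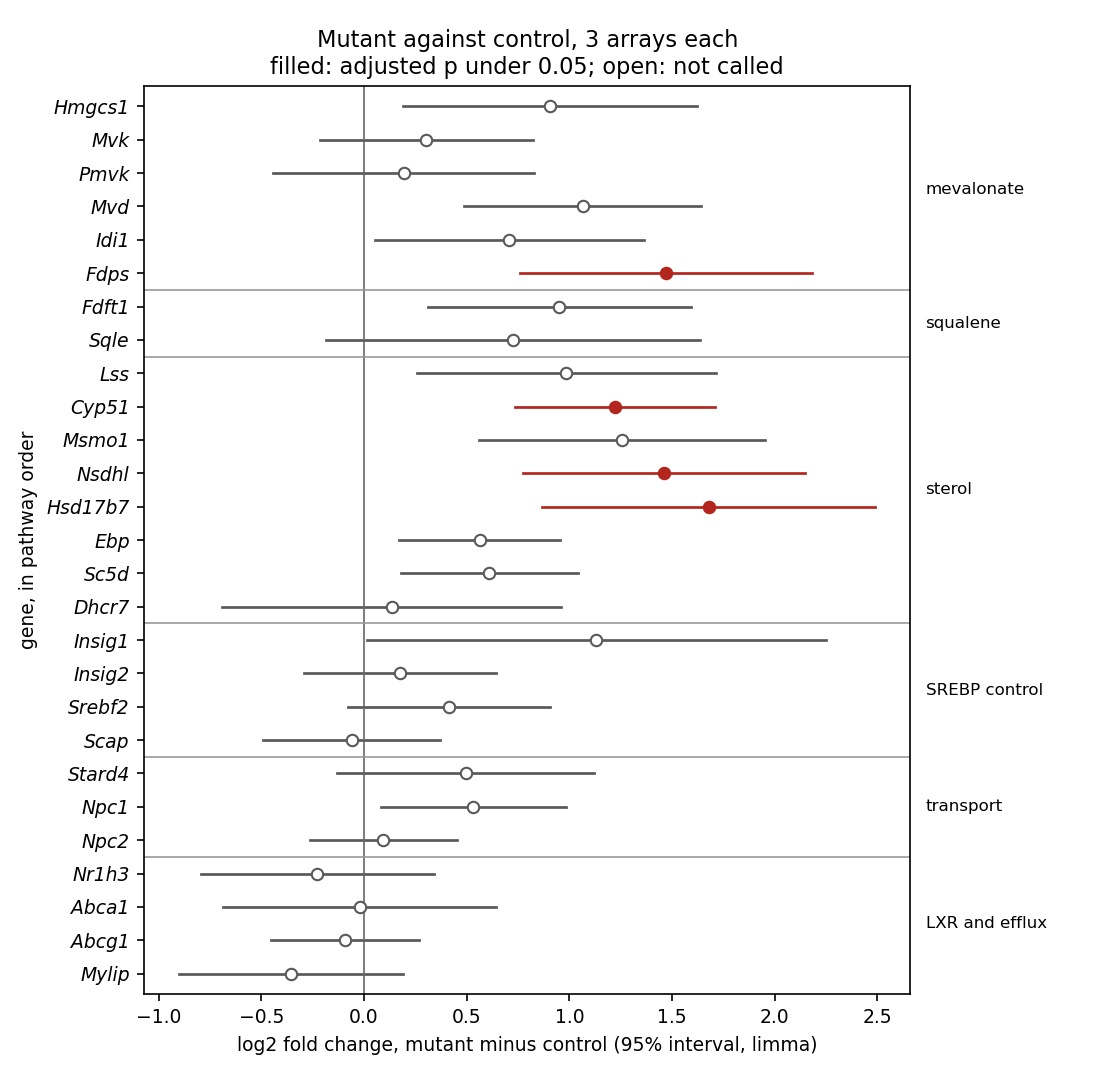
Points are log2 fold changes of mutant over control for the 27 measured genes in pathway order, with 95% limma intervals from 3 arrays a group; filled red points passed an adjusted p of 0.05. The 4 filled points are Fdps, Cyp51, Nsdhl and Hsd17b7, and the LXR and efflux genes all lie below 0.

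The spread among the control arrays was itself shared by the pathway. In 15 of 16 enzymes control 2 was the lowest control, control 1 the middle one and control 3 the highest, an order that 17.4% of all transcript clusters showed. Ebp was the exception. The control SD of the enzymes ran from 0.13 to 0.91, with a median of 0.61 against 0.21 over all transcript clusters, and the mutant SD from 0.08 to 0.44, with a median of 0.28. In 15 of 16 enzymes the control SD was the larger, compared with 49.5% of all transcript clusters. The median of control 3 minus control 2, the highest and lowest controls of most enzymes, was 1.22 over the enzymes. Their median log2 fold change between genotypes was 0.93, but this is a difference of group means and so an unlike measure. Over all transcript clusters the median of control 3 minus control 2 was -0.02, where differences of either sign can cancel. The mean deviation of the 16 enzymes from each gene's average over the 6 arrays was -0.46, -0.99 and 0.11 on control arrays 1, 2 and 3 and 0.61, 0.47 and 0.26 on mutant arrays 1, 2 and 3. Mutant arrays also differed, and mutant 3 was the lowest mutant in 10 of 16 enzymes, or 62.5%, where 36.0% of all transcript clusters showed this. The enzymes were measured on the same 6 arrays, so their shared order is 1 pattern over arrays and not 16 independent ones.

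Control 3, the control with the highest signals of most enzymes, also had the highest levels of most urothelium markers and of Actg2, Myh11 and Cnn1. Whether these are linked was not tested. Without control 3, Hmgcs1, Mvd, Fdft1, Lss and Msmo1 were called in addition to Fdps, Cyp51, Nsdhl and Hsd17b7, 9 rises of 27 genes, where 2.54% of all transcript clusters rose in the same comparison. The median log2 fold change of the enzymes was then 1.27, and that of Nsdhl was 1.82 ± 0.22 (adjusted p = 0.00304). The mean of the mutant arrays still lay above control 3 in 12 of 16 enzymes, with a median difference of 0.34, and 51.0% of all transcript clusters had a mutant mean above control 3. Without control 2, the lowest array of the pathway, the median log2 fold change of the enzymes was 0.64.

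The control machinery of the pathway was not called, with 0 of 4 measured genes passing in limma and 1 with an unadjusted p under 0.05. Insig1, which retains SCAP in the endoplasmic reticulum and is itself a target of SREBP2, had the widest control spread of the 27 genes (SD 1.15). It was at 11.50, 9.89 and 12.13 in controls and at 12.57, 12.59 and 11.75 in mutants. The controls followed the order of the enzymes, control 3 lay above mutant 3, and the log2 fold change of 1.13 had an interval from 0.01 to 2.25 (adjusted p = 0.322). Srebf2, which encodes SREBP2, was at 14.06, 13.62 and 14.38 in controls and 14.49, 14.58 and 14.23 in mutants (0.41, -0.08 to 0.90). It too followed the enzymes' order in controls, and mutant 3 lay below control 3. Scap was at 10.22, 9.97 and 10.47 in controls and 10.24, 10.30 and 9.93 in mutants, with an interval from -0.49 to 0.37. Insig2, the INSIG form that is not driven by SREBP2 in the same way, overlapped between genotypes and had its controls in another order, at 6.54, 6.77 and 6.25 (0.18, -0.29 to 0.64).

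Of the transport genes 0 of 3 passed in limma, and 1 had an unadjusted p under 0.05. Npc1, the membrane protein that exports cholesterol from lysosomes, was at 8.57, 8.11 and 7.99 in controls and at 8.70, 8.61 and 8.95 in mutants. Its mutant arrays lay above all controls by 0.04, and the log2 fold change was 0.53 ± 0.20 (adjusted p = 0.240). Its soluble partner Npc2 spanned a narrow range, 9.53, 9.71 and 9.81 in controls and 9.74, 9.82 and 9.77 in mutants (0.09, -0.26 to 0.45). Stard4, a cytosolic sterol carrier that SREBP2 also drives, was at 8.89, 7.97 and 8.56 in controls and 9.25, 9.16 and 8.50 in mutants, with control 1 and control 3 above mutant 3 (0.49, -0.13 to 1.12).

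Genes of the efflux side were not called. Of 4 measured LXR and efflux genes 0 were called in limma, 0 had an unadjusted p under 0.05, and all 4 had a lower mean in mutants, with a median log2 fold change of -0.16. Abca1, the pump that loads cholesterol onto apolipoproteins, was at 11.27, 11.31 and 10.83 in controls and at 10.78, 10.75 and 11.83 in mutants. Mutant 3 was the highest of the 6 arrays and the other 2 mutants were the lowest, and the interval of the log2 fold change of -0.02 ran from -0.68 to 0.65. Its sign flipped without control 1, control 2, mutant 1 or mutant 2. Abcg1, the partner pump, lay slightly above background on all arrays, at 6.19, 6.24 and 5.97 in controls and 6.02, 6.01 and 6.10 in mutants (-0.09, -0.45 to 0.27). Mylip was at 10.40, 10.03 and 10.81 in controls and 9.71, 10.14 and 10.32 in mutants (-0.35, -0.90 to 0.19). Nr1h3, which encodes LXR alpha, was below background on every mutant array and on 2 of 3 control arrays, so its change is of little precision, and its sign flipped without control 3.

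Macrophages commonly express LXR and the efflux pumps, and their markers moved with genotype. Of 13 measured macrophage markers 10 rose and none fell. Over all transcript clusters 2.59% rose and 3.26% were called, the base for the counts of calls in these marker lists. The mean level of the macrophage markers was 8.28 to 8.44 over controls and 9.45 to 9.76 over mutants, and none lay below background on every array. Abca1, Abcg1 and Nr1h3 were not called in the same samples, with limited precision. The Abca1 interval ran from -0.68 to 0.65, Abcg1 lay slightly above background, and Nr1h3 lay below it on most arrays. The part of macrophages in the signals of these genes was not tested. Other lists also moved with genotype. Of 11 hypoxia-responsive genes 9 rose, with mean levels of 11.07 to 11.69 over controls and 13.24 to 13.28 over mutants. Of 10 immediate early and stress genes 5 rose, with mean levels of 8.43 to 9.06 and 10.08 to 10.13. Of the 3 controls, control 3 was the highest for immediate early genes, as for the enzymes, with mean deviations of -0.96, -0.88 and -0.33 on controls 1, 2 and 3. For hypoxia genes these were -1.28, -0.66 and -0.76, and for macrophage markers -0.51, -0.66 and -0.67. Duct epithelium markers had -0.04, -0.24 and 0.30 on controls, the enzymes' order, and 0.30, 0.28 and -0.59 on mutants 1, 2 and 3. Of these 8 markers only 1 had that order of controls by itself. Mutant 3 was the lowest mutant in 7 of the 8, or 87.5%, where 36.0% of all transcript clusters showed this. Among them 1 rose, Lhx1, which lay below background on every array. Of 8 smooth muscle markers 1 rose, Tagln, at 11.52, 12.76 and 12.62 in controls and 15.37, 15.26 and 15.02 in mutants, and the list's mean level was 9.17 to 12.33 over controls and 10.79 to 11.23 over mutants. Acta2 had all mutant arrays above all controls without being called (2.00, adjusted p = 0.191). The duct mesenchyme list had mean levels of 11.67 to 11.86 over controls and 10.69 to 11.29 over mutants. Of 8 measured, 1 fell and 4 had an unadjusted p under 0.05, all with lower means in mutants. The one that fell was Amhr2, at 10.88, 10.51 and 10.80 in controls and 6.92, 7.52 and 6.54 in mutants (-3.73, adjusted p = 0.000112), whose locus carries the Cre. The part of these cells and responses in the enzyme signals was not tested. Of steroidogenic markers of gonad and adrenal, tissues that use much cholesterol, 0 of 6 were called in limma, 2 had an unadjusted p under 0.05 with lower means in mutants, and Star, Cyp17a1 and Cyp11b1 lay below background on every array. Of 7 adipocyte markers 0 were called, and 2, Fabp4 and Lpl, had an unadjusted p under 0.05 with higher means in mutants. Adipoq, Plin1, Cidec and Lep lay below background on every array. For these marker lists too, the base is 3398 of all 22206 transcript clusters with an unadjusted limma p under 0.05.

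**Figure D3:**
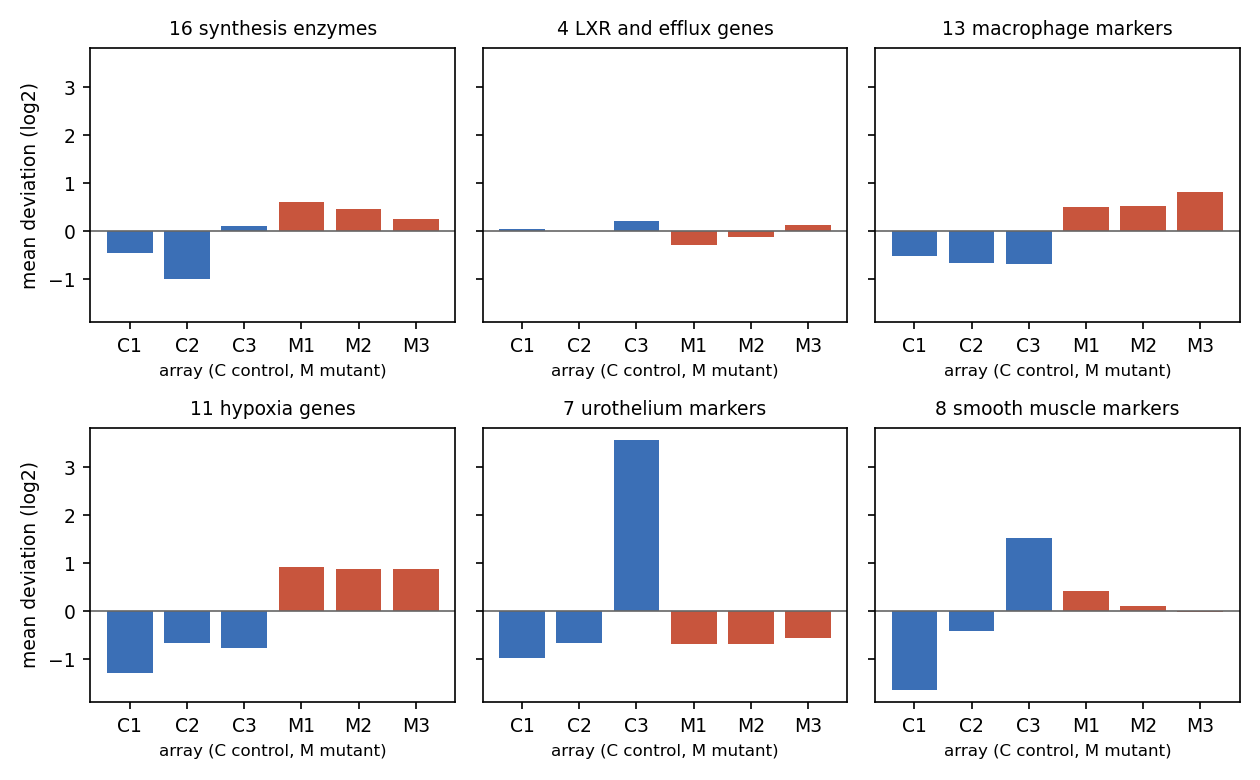
Bars show, for each array, the mean deviation of a list of genes from each gene's average over the 6 arrays, in log2 units (C1 to C3 control, M1 to M3 mutant). The enzymes run from -0.99 on control 2 to 0.61 on mutant 1, the macrophage and hypoxia lists separate the genotypes, and the urothelium list stands at 3.56 on control 3.

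Neighbouring lipid pathways had medians closer to 0. Fatty acid synthesis and desaturation genes, which SREBP1 and SREBP2 share as targets, had a median log2 fold change of 0.27. Of 12 measured, 2 rose, or 16.7%, where 2.59% of all transcript clusters rose. In 5 of the 12, or 41.7%, every mutant array lay above every control array, where 10.9% of all transcript clusters did. This share was 62.5% for the synthesis enzymes and 40.7% for the 27 measured members. Of the 12, 5 had an unadjusted limma p under 0.05 (3398 of all 22206 transcript clusters). The enzymes' order of controls was shown by 7, or 58.3% (17.4% of all transcript clusters). Me1, the malic enzyme that supplies NADPH to lipid synthesis, was at 7.51, 8.13 and 9.48 in controls and 10.37, 10.06 and 10.71 in mutants, a rise of 2.01 ± 0.43 (adjusted p = 0.0377) with no overlap. Lpin1, a phosphatidate phosphatase of glycerolipid synthesis, was at 6.12, 6.15 and 5.88 in controls and 6.82, 6.90 and 6.83 in mutants, a rise of 0.80 ± 0.16 (adjusted p = 0.0280). Lpin1 was called in none of the 6 comparisons that left out 1 array, and Me1 in only that without control 3.

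The 14 measured genes of esterification, lipoprotein receptors and oxysterol enzymes had a median of 0.20. None fell and 1 rose, or 7.14%, where 2.59% of all transcript clusters rose. The gene that rose was Lrp8, a lipoprotein receptor family member that binds reelin, at 4.67, 4.24 and 5.49 in controls and 6.36, 6.30 and 6.12 in mutants. All controls were below background and all mutants above it, so its log2 fold change of 1.46 ± 0.29 (adjusted p = 0.0252) is of little precision, and of the comparisons that left out 1 array only that without control 3 called it. The isoprenoid branches, which carry farnesyl diphosphate onward to protein prenylation, dolichol and coenzyme Q, had 0 of 10 called in limma and 0 with an unadjusted p under 0.05, with a median of -0.19. The smallest p there were those of Nus1, at 0.32 (-0.07 to 0.71), and Coq2, at -0.29 (-0.68 to 0.10). Of 6 measured genes for the proteases that cut SREBP and for sterol-regulated degradation, 0 were called in limma, with a median of -0.04. Among the 6, 1 had an unadjusted p under 0.05, as had 3398 of all 22206 transcript clusters. Erlin1, at -0.49 (-0.92 to -0.06), and Erlin2, at -0.21 (-0.59 to 0.17), had the smallest p.

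**Figure D4:**
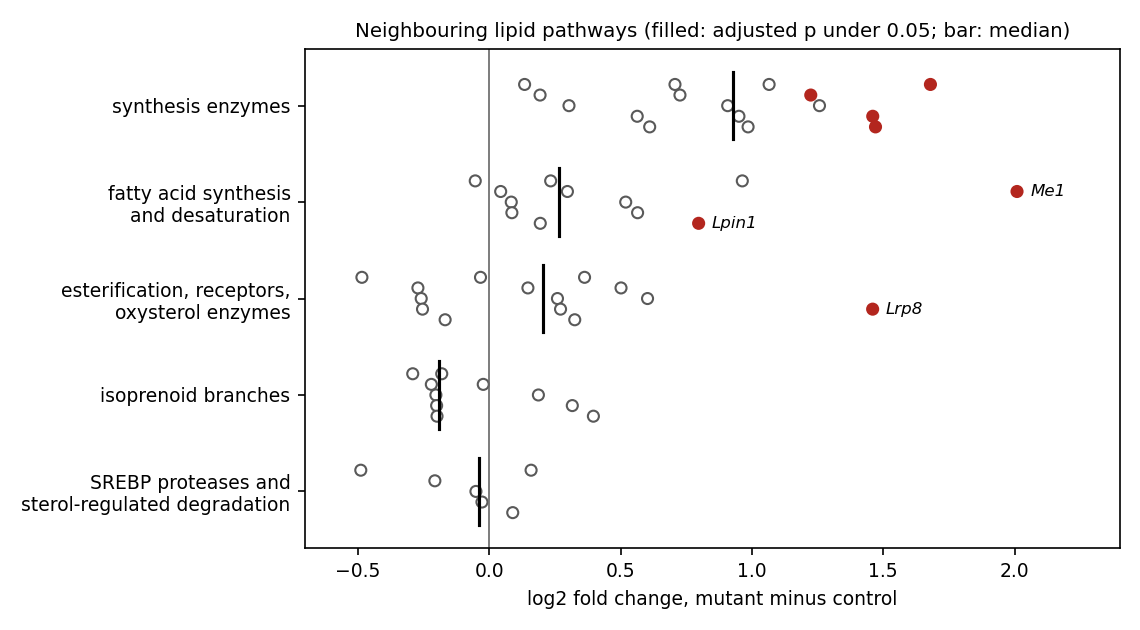
Each point is the log2 fold change of 1 gene, mutant over control, grouped by pathway, with a bar at each median; filled points passed an adjusted p of 0.05. The enzymes centre on 0.93 and the 4 neighbouring lists on medians between -0.19 and 0.27.

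The 250 bases before each annotated gene start were searched for the letters that factors known to act on these genes bind. SREBP2 binds the sterol regulatory element and works with the factor NF-Y, which binds the CCAAT box, and with SP1, which binds the GC box. RefSeq promoters (GRCm38.p6) were matched for 15 of the 18 listed enzymes, and none was matched for Fdps, Fdft1 or Sqle. Both strands were searched, and a gene with several promoters counted once. The CCAAT box (CCAAT) was present in 14 of the 15, or 93.3%, in 39.5% of the 17491 protein-coding genes of the same table and in 33.8% of all its promoters. Acat2 was the gene without it. The GC box (GGGCGG) was in 14 of 15, against 45.8% of protein-coding genes and 32.7% of all promoters. The sterol regulatory element core (TCACNCCA) was in Hmgcs1 and Msmo1 only, 2 of 15, against 4.03% of protein-coding genes and 3.67% of all promoters, and outside the enzymes in Srebf2, 1 of 10. The E-box (CACGTG) was in 3 of 15, against 7.61% and 6.02%. Among the other 10 genes with a promoter, 6 held a CCAAT box, 8 a GC box and 3 an E-box. The matches are letters in a window and do not show binding. Only these exact letters were searched, so a window without a match is not shown to lack an element.

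The following stretches are shown because they belong to the called enzymes with a promoter in the table and to the members that hold the sterol regulatory element core. They are written 5′ to 3′ on the strand of the gene, and capitals mark the CCAAT box (CCAAT, or ATTGG where it lies on the other strand) and the sterol regulatory element core (TCACCCCA or TCACTCCA). Cyp51 is at chr5:4104712-4104771 on the minus strand, Nsdhl at chrX:72918402-72918515 on the plus strand, and Hsd17b7 at chr1:169969206-169969380 on the minus strand. Hmgcs1 is at chr13:119690104-119690320 on the plus strand, Msmo1 at chr8:64733619-64733765 on the minus strand, and Srebf2 at chr15:82147089-82147148 on the plus strand.
Cyp51: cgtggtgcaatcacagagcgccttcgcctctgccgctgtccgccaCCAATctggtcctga
Nsdhl: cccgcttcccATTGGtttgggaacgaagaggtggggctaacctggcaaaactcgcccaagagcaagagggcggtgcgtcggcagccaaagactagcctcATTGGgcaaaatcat
Hsd17b7: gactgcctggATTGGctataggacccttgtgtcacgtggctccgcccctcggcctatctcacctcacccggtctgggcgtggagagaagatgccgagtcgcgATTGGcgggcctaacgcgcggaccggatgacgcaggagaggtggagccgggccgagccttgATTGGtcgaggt
Hmgcs1: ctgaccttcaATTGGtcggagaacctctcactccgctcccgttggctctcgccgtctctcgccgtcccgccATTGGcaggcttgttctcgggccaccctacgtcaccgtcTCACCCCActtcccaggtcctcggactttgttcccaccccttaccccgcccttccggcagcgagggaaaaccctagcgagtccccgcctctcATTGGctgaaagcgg
Msmo1: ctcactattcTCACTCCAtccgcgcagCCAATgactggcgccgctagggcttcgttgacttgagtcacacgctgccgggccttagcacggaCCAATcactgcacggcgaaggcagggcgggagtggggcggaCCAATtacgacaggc
Srebf2: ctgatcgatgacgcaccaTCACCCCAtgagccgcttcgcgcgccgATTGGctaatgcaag

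The called enzymes Cyp51, Nsdhl and Hsd17b7 held 1, 2 and 3 CCAAT boxes and no match to the searched sterol regulatory element core in the window. In Hmgcs1 the core began 137 bases before the annotated start, between 2 CCAAT boxes farther out and 1 nearer the start. In Msmo1 it began 177 bases before the start, with 3 CCAAT boxes nearer the start, and in Srebf2 162 bases before it, with 1 CCAAT box at 135 bases. Dhcr7, whose mean differed least between genotypes among the enzymes, also held 2 CCAAT boxes and GC boxes in its promoters.

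**Figure D5:**
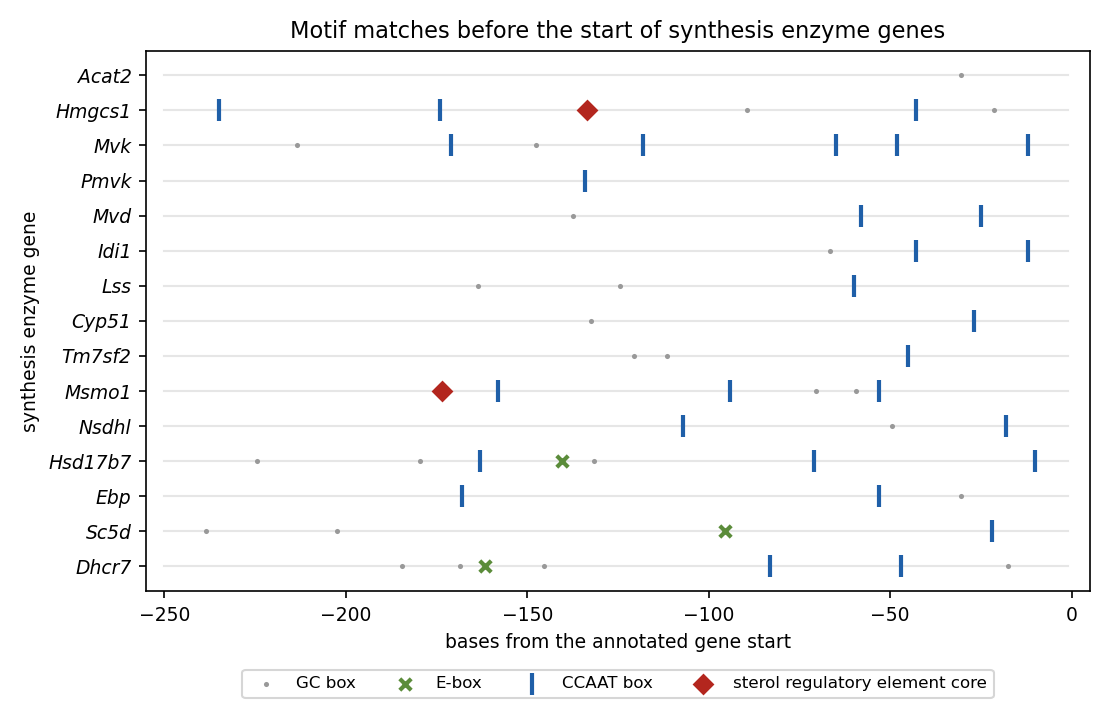
Positions of motif matches in the 250 bases before the annotated start of the 15 synthesis enzyme genes with a promoter (matches of a gene's several promoters are drawn on 1 line); the x axis is distance in bases. CCAAT boxes occur in 14 of the 15 genes and the sterol regulatory element core in Hmgcs1 and Msmo1.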

How the data were processed

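Total RNA of Müllerian ducts was hybridised to Affymetrix arrays, 3 control and 3 mutant, which the labels call biological replicates; p-values measure the spread between these samples. The authors deposited log2 signals per transcript cluster. The submitters' processing notes name Transcriptome Analysis Console 4.0. How probes were summarised and normalized was not given in the sources used here. Values were used as deposited, and the median of each array's background probes served as its background level. Gene symbols are those of the platform annotation, which lists 1 symbol for 19572 of 22206 tested rows; 2634 have none, and each gene named here has 1 row. All rows entered 1 limma 3.58.1 model (R 4.3.3; lmFit, eBayes) of genotype alone, and p-values were adjusted by Benjamini-Hochberg, two-sided, at 0.05. The fit was tested on simulated data. The members and lists were chosen with earlier results of these data known. All members could be named; of other pathway lists, the called genes or else the 2 with the smallest p. Promoters were RefSeq's, and figures were drawn with matplotlib 3.10.9. The alternatives comprised quantile normalization, a shift of arrays to 1 median, filters on dim rows, a trended and robust prior, array weights, a replicate block, a threshold of 0.01 and each array left out.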

Additional observations from a re-analysis of the deposited data

How the results depend on the processing

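No member fell under any alternative, with limma in each case. Member rises numbered 4 under quantile normalization, the 25th percentile filter and the replicate block, 5 with arrays shifted to a common median, 6 without rows under the median signal, with a trended and robust prior or with array weights, 0 at a threshold of 0.01, and 0 to 9 with 1 array left out. The 2 rises among fatty acid genes became 1 with the trended prior, with the replicate block or without rows under the median, where Lpin1 was not tested. They became 0 at a threshold of 0.01, and 0 to 1 with 1 array left out. The Lrp8 rise gave 0 without rows under the median, where it was not tested, 0 at 0.01, and 0 to 1 with 1 array left out. Over all transcript clusters 575 rises became 260 at 0.01 and 305 to 565 with 1 array left out, and 148 falls became 257 without rows under the median, 243 with the trended prior, 39 at 0.01 and 55 to 132 with 1 array left out. The median log2 fold change of the enzymes was 0.64 to 1.27 with 1 array left out and 0.87 to 0.96 under the other alternatives, and that of the transport genes was 0.24 to 0.70 with 1 array left out. Genes whose sign flipped with 1 array left out were uncalled throughout: Pmvk (-0.051 to 0.45), Dhcr7 (-0.31 to 0.48), Scap (-0.18 to 0.064), Nr1h3 (-0.40 to 0.058) and Abca1 (-0.38 to 0.16). With the replicate number as a block, Hsd17b7 kept its log2 fold change of 1.68 but was not called (adjusted p = 0.0557), and Msmo1 was called (adjusted p = 0.0275). The labels do not say that the number pairs samples. Over all transcript clusters, same-numbered deviations correlated at 0.01, 0.04 and -0.00302, and differently numbered ones at -0.0435 to 0.0318. A pairing that acts on few genes would not show in these values.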
